A study of Mus musculus with 4 samples.

Results

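The 10 genes described here each encode a surface molecule by which the B-lymphoid stages of mouse bone marrow are told apart: Ptprc, Cd24a, Bst1, Spn, Cd93, Il2ra, Cd2, Ms4a1, Cd72 and Mme. They were chosen by name, as all probe sets of the expression array whose single gene symbol in the platform's annotation was one of the 10 genes. Each gene had 1 such probe set, giving 10 of 34760 probe sets and 10 of the 19937 genes that had a single-symbol probe set. The RNA came from pro-B cells of wild-type C57BL/6 mice, isolated from bone marrow as B220+ c-Kit+ cells and hybridized to Affymetrix Mouse Gene 1.0 ST arrays as 4 replicates, 1 on each array. The methods give the gate as low B220 with c-Kit. No transgenic or treated sample was analysed here, the labels give neither age nor sex, and they do not say whether the replicates were separate mice or pools. The spread between arrays may therefore be technical in part. All values are log2 intensities, and the number of arrays limits the precision.

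B lymphocytes pass in the marrow from pro-B cells, which rearrange the heavy-chain locus, to pre-B cells, which carry the pre-B-cell receptor and rearrange the light chain, and on to immature B cells with surface IgM. The stages are read by flow cytometry from molecules that come and go on the cell membrane. B220 is an isoform of CD45, the tyrosine phosphatase encoded by Ptprc. CD43 (Spn), the AA4.1 antigen (Cd93) and BP-3, also called CD157 (Bst1), mark early precursors, and the heat-stable antigen CD24 (Cd24a) is displayed through most of the precursor stages. CD25 (Il2ra) and CD2 (Cd2) appear at the pre-B stage, CD20 (Ms4a1) and CD72 (Cd72) belong to the B lineage and persist on later B cells, and CD10 (Mme) marks human rather than mouse B-cell precursors.

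The sort was first read from its own markers. Kit, the receptor tyrosine kinase of the gate, had log2 values of 10.46, 10.83, 10.81 and 10.80 on the arrays of replicates 1 to 4, and all 8 early B-lineage surface genes that had a single-symbol probe set lay above background. Background was read from the 1246 probe sets of chemosensory receptor genes (smell, pheromone and taste), silent in lymphocytes: their 95th percentile was the line of an array (6.53, 6.62, 6.54 and 6.59), and every array had to pass it. The array of replicate 3 stood apart in the X-inactivation transcript Xist (5.48 against 13.04 to 13.17), so the arrays did not all carry the same RNA. Markers of other marrow cells were present as well, with 12 of 12 granulocyte and monocyte genes and 9 of 9 erythroid genes above background. Beside all these counts, 63.5% of single-symbol probe sets were above background.

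Before the values, the upstream sequences of 4 members are shown, because they include a pair of genes that were highest on replicate 1 and lowest on replicate 4 (Il2ra and Cd72) and a pair that were not (Spn and Ptprc). The RefSeq promoter table (GRCm38.p6) held 8 start sites of 5 members: Ptprc, Il2ra, Cd72, Spn and Mme. The 250 bases before a start site were searched on both strands for 6 short motifs: CAGGTG (the E-box of E proteins), CCCNNGGG (an EBF core), GGAAGT (the ETS core), TGGGAA (an Ikaros core), ATGCAAA (an octamer core) and TATAAA (the TATA box). GGAAGT and TGGGAA can share 4 letters where they overlap. The windows printed are those of Il2ra (chr2:11642542-11642791, plus strand), Cd72 (chr4:43454627-43454876, minus strand), Spn (chr7:127137824-127138073, minus strand) and the more upstream of the pair of Ptprc start sites (chr1:138175306-138175555, minus strand), each 5′ to 3′ on the gene's strand, with matches to any motif in capitals.
Il2ra: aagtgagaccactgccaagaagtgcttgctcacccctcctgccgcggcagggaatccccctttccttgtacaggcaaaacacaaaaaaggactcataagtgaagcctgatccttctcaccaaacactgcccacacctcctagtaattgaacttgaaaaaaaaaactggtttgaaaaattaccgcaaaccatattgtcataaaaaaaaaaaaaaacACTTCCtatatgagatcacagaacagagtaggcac
Cd72: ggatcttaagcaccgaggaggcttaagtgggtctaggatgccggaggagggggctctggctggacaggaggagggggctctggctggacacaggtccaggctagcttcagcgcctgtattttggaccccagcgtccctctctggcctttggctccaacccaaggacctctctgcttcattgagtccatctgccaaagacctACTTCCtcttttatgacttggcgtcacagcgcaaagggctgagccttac
Spn: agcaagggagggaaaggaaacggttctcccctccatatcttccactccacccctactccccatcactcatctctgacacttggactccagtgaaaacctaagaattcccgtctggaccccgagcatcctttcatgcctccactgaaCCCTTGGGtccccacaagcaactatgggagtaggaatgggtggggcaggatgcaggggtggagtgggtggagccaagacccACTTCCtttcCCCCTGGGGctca
Ptprc: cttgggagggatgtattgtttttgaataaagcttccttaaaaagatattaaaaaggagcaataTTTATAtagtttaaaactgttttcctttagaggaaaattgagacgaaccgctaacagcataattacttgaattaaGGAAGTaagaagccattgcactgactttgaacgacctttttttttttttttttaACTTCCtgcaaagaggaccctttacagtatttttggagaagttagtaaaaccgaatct
The ETS core was found in all 4 of these windows. Its first base lay 35 bases before the start site in Il2ra, 49 in Cd72, 23 in Spn, and 112 and 58 in Ptprc. In Il2ra, Cd72, Spn and the nearer Ptprc match it reads as ACTTCC, the reverse complement. Over the 8 member windows the ETS core was present in 5, beside 19.7% of the 32851 windows in the table, but the windows of the pair of Ptprc start sites overlap and share 1 match. The EBF core was present in 3 of 8 windows, from Spn and Mme, against 11.8% of all windows, and the TATA box in 1, from Ptprc, against 12.4%. The E-box (17.2% of all windows), the Ikaros core (21.6%) and the octamer core (4.12%) were in none of the 8. A match is a run of letters, not a binding site, and 5 of the 10 genes were not searched. The GC content of the windows ran from 31.6% for Ptprc to 58.0% for Cd72 among the sequences shown, against a median of 52.4% over the table.

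Of the 10 surface markers, 9 were above background on all 4 arrays, beside 60.0% of all 34760 probe sets and 63.5% of the 21640 with a single gene symbol. The exception was Mme. By a one-sided limma test of the value over the line of its array, adjusted by Benjamini-Hochberg over all probe sets, the same 9 genes passed, with adjusted p-values from 2.88e-09 for Cd93 to 6.52e-06 for Il2ra, where 60.2% of all probe sets passed. In bulk RNA such as this, fewer cells of a type and less RNA per cell cannot be told apart. Levels of different probe sets are not set against each other, since probes differ in how well they hybridize.

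Ptprc, whose B220 isoform was the antigen of the sort, is given as a check, because the gate fixes it. It had log2 values of 11.86, 11.29, 11.76 and 11.69 on the arrays of replicates 1 to 4, a mean of 11.65 ± 0.25 (SD, n = 4). Replicate 2 was the low array, with the other arrays within 0.16 of each other. The array reads Ptprc as 1 probe set and gives no measure of the B220 isoform alone. Cd24a, a small heavily glycosylated protein anchored to the membrane by a lipid, had log2 values of 12.35, 12.35, 12.64 and 12.55, a mean of 12.47 ± 0.15 (SD, n = 4). Its values were alike on replicates 1 and 2 and higher on replicates 3 and 4. With Spn it was 1 of 2 members at their lowest on replicate 1, where 28.9% of the 13744 single-symbol probe sets above background were lowest, but after quantile normalization its lowest array was replicate 2.

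The 3 early precursor markers did not move together. Spn, the sialomucin CD43 that separates pro-B cells from small pre-B cells, had log2 values of 10.01, 10.03, 10.15 and 10.17, a mean of 10.09 ± 0.08 (SD, n = 4). Cd93, the AA4.1 antigen of early B-lineage cells and other progenitors, had log2 values of 12.10, 11.96, 11.84 and 11.95, a mean of 11.96 ± 0.11 (SD, n = 4). Both had a small range over the arrays, Spn with a range of 0.16 and Cd93 with one of 0.26. On replicate 1 Cd93 was highest and Spn lowest. Bst1, a membrane-anchored ADP-ribosyl cyclase found on early B-lineage cells, myeloid cells and marrow stroma, had log2 values of 10.04, 9.12, 9.66 and 9.80, a mean of 9.66 ± 0.39 (SD, n = 4). Replicate 2 held the lowest value of 2 of the 10 genes, Bst1 and Ptprc, against 23.4% of single-symbol probe sets above background, and for Bst1 the difference between replicates 1 and 2 was 0.93, or 1.90-fold. The shift of Bst1 on replicate 2 from the mean of the other arrays was -0.72, and that of Ptprc was -0.48.

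The pre-B markers varied more than Spn and Cd93, but not both more than Bst1, whose SD of 0.39 lay between those of Cd2 and Il2ra. Il2ra, the alpha chain of the interleukin-2 receptor, had log2 values of 9.61, 9.17, 9.14 and 8.50, a mean of 9.10 ± 0.46 (SD, n = 4). Cd2, an adhesion receptor of lymphocytes, had log2 values of 9.28, 8.96, 9.11 and 8.51, a mean of 8.97 ± 0.33 (SD, n = 4). Both genes were highest on replicate 1 and lowest on replicate 4. The lowest value of either gene, on replicate 4, still lay above the background line, by 1.91 for Il2ra and 1.92 for Cd2.

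Ms4a1 and Cd72 had their highest and lowest values on the same arrays as Il2ra and Cd2. By stage, Cd72 was listed with Ptprc and Cd24a as a pan-B and precursor marker, and this group was split. On replicate 4 the shift was 0.06 for Ptprc, 0.10 for Cd24a and -0.76 for Cd72. Later B cells carry all of these molecules, so the stage marked did not set the pattern apart. Ms4a1, which encodes CD20, a membrane-spanning protein of B cells, had log2 values of 11.23, 10.74, 10.84 and 10.20, a mean of 10.75 ± 0.42 (SD, n = 4). Cd72, a C-type lectin-like receptor that dampens B-cell receptor signals through the phosphatase SHP-1, had log2 values of 11.66, 10.82, 10.93 and 10.38, a mean of 10.95 ± 0.53 (SD, n = 4). Replicate 1 was again the high array and replicate 4 the low one. Cd72 had the widest range of the 10 genes, 1.28 or 2.43-fold.

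Mme, a zinc metallopeptidase known as CD10, had log2 values of 5.27, 5.19, 5.20 and 5.18, a mean of 5.21 ± 0.04 (SD, n = 4). It lay below the background line on every array, by 1.26 to 1.43, so no change of its level over the arrays could be read.

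**Figure D1:**
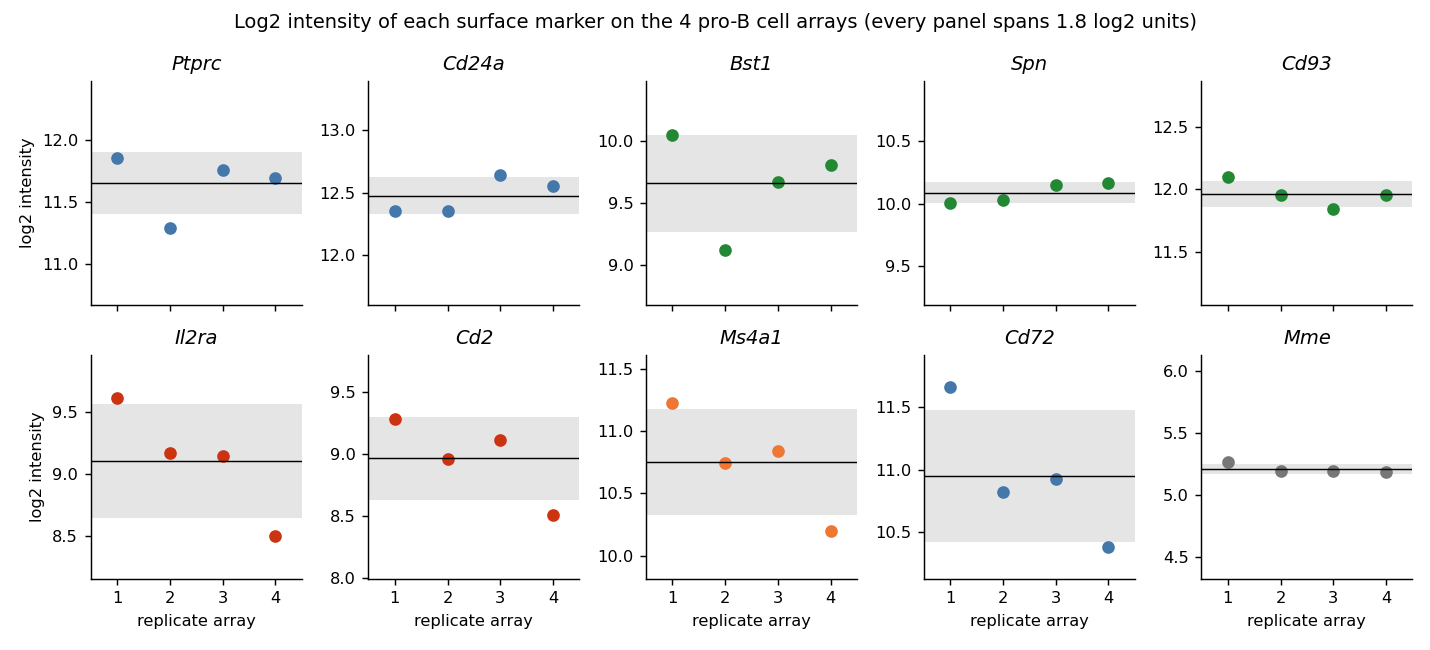
Log2 intensity (vertical axes, each panel spanning 1.8 log2 units) of the 10 surface marker genes on the arrays of replicates 1 to 4 of wild-type pro-B cells (horizontal axes). Points are single arrays, lines are means and grey bands are the mean ± SD over the 4 arrays; Il2ra, Cd2, Ms4a1 and Cd72 are highest on replicate 1 and lowest on replicate 4, Ptprc and Bst1 are lowest on replicate 2, and Spn, Cd93 and Mme are nearly level.

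Over the arrays the 10 genes thus differed in how far and in which order they moved. Their median SD was 0.29, beside 0.11 over the 13744 single-symbol probe sets above background, and 7 of the 9 genes above background exceeded that value. A range over the arrays of more than 0.5 on the log2 scale was found for Ptprc, Bst1, Il2ra, Cd2, Ms4a1 and Cd72, that is 6 of 10, where 11.9% of single-symbol probe sets above background had one. An SD as large as that of Cd72 was found in 0.917% of these probe sets, as large as that of Il2ra in 1.43%, of Ms4a1 in 1.90%, of Bst1 in 2.34% and of Cd2 in 3.86%. For Ptprc the share was 8.89%, for Cd24a 32.2%, for Cd93 55.4% and for Spn 72.5%. The 6 genes with a wide range were therefore among the more variable of the array, while Cd24a, Cd93 and Spn were not. The number of genes with a wide range depended on the arrays kept. Without replicate 4 the wide range was left in 3 genes (Ptprc, Bst1 and Cd72), beside 8.66% of single-symbol probe sets, and without replicate 2 in 4 (Il2ra, Cd2, Ms4a1 and Cd72), beside 9.0%. Without replicate 1 it was left in 5, all but Ptprc, beside 4.87%, and without replicate 3 in all 6, beside 9.66%. Cd72 had a range of more than 0.5 whichever array was left out.

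The array of replicate 1 held the highest value of 8 of the 10 genes, or 7 of the 9 above background, where it held that of 33.2% of single-symbol probe sets above background. The array of replicate 4 held the lowest value of 5 of the 10 genes, or 4 of the 9, against 27.6%. Being highest on replicate 1 and lowest on replicate 4 at once was found for Il2ra, Cd2, Ms4a1 and Cd72, and for Mme within the background, against 14.9% of these probe sets. Replicate 1 exceeded replicate 4 by 1.11 for Il2ra, 0.78 for Cd2, 1.03 for Ms4a1 and 1.28 for Cd72, and 3.83% of these probe sets exceeded 0.5 in that direction. For the other 5 genes above background the same difference lay between -0.20 for Cd24a and 0.24 for Bst1. The step between these groups of genes has no test, since each array is 1 sample. Il2ra, Cd2, Ms4a1 and Cd72 were 0.55 to 0.64 lower on replicate 4 than on replicate 3. That direction follows from grouping them by their lowest array and adds no support. Ptprc and Cd24a were lower on replicate 4 too, by 0.07 and 0.09. Spn, Cd93 and Bst1 were higher there, by 0.02, 0.11 and 0.14.

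**Figure D2:**
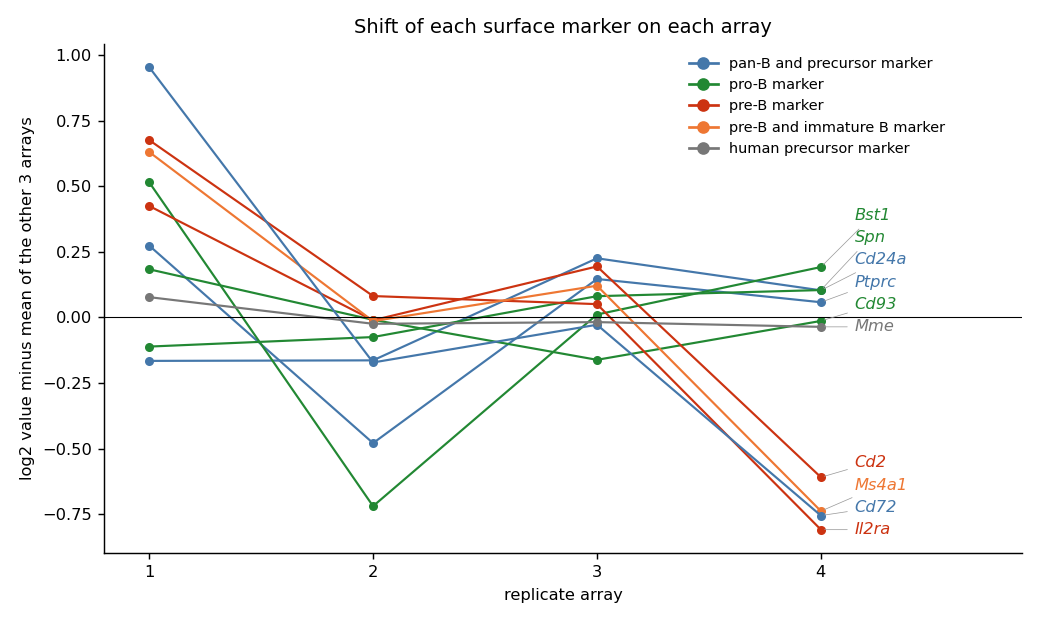
Shift of each of the 10 surface marker genes on each replicate array (horizontal axis), that is its log2 value there less its average on the remaining 3 arrays (vertical axis). Lines only join the points of a gene and colours give the stage it marks; on replicate 4 the shifts of Cd2, Ms4a1, Cd72 and Il2ra lie between -0.61 and -0.81, apart from the other genes.

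**Figure D3:**
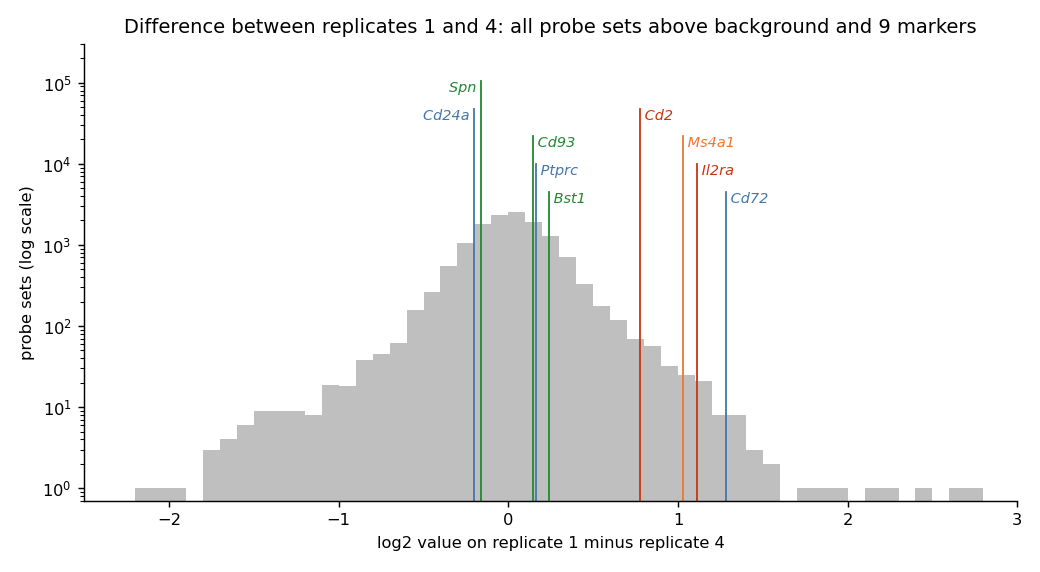
Histogram of the difference in log2 value between replicates 1 and 4 (horizontal axis) for 13744 single-symbol probe sets above background, with their number on a log axis (vertical axis) and the 9 surface markers above background as lines, whose heights carry no value. Cd2, Ms4a1, Il2ra and Cd72 lie at 0.78 to 1.28 and the other markers between -0.20 and 0.24.

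The patterns were set against the whole array by the mean absolute difference of mean-centred log2 values over the 4 arrays. With only 4 arrays many genes come close by this measure, and it is given as a description. Nearest to Cd72 were Lig4 (0.038), Myl4 (0.044) and Foxo1 (0.045). Nearest to Il2ra were Ikzf3 (0.035), Pik3c2b (0.035) and Adam1a (0.043), and nearest to Ms4a1 were Ikzf3 (0.018), Ccr7 (0.031) and Sbk1 (0.032). Among the markers themselves, Ms4a1 was 0.053 from Il2ra and 0.077 from Cd2. The other pairs of Il2ra, Cd2, Ms4a1 and Cd72 were wider. Cd72 was 0.12 from Ms4a1 and 0.12 from Il2ra, and Cd2 was 0.13 from Il2ra and 0.20 from Cd72. Many other genes lay nearer, with Cd2 at place 83 by nearness to Il2ra and 215 by nearness to Cd72. The remaining markers above background were 0.30 (Cd93) to 0.41 (Cd24a) from Il2ra.

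Other surface genes of the B lineage were read in the same way. Among the early ones, Il7r, a receptor chain for the cytokine that supports B-cell precursors, had log2 values of 11.17, 10.20, 10.30 and 9.98, in the order of Cd72. Cd79a and Cd79b, the signalling chains of the B-cell receptor, were highest on replicate 1 (12.64 and 13.02) and lowest on replicate 4 (11.71 and 12.17). Kit went the other way, with its lowest value on replicate 1, and Flt3, a cytokine receptor of early progenitors, ran only from 9.03 to 9.33. Enpep, the BP-1 antigen that is used with CD24 to divide CD43+ cells, had log2 values of 8.24, 7.50, 6.70 and 7.08. It was lowest on replicate 3, unlike Bst1, but its value there lay close to the background line of 6.54. On replicate 4, 6 of the 8 early genes were lower than on the other arrays on average (median shift -0.48). Over all single-symbol probe sets above background the median was -0.01, with 7430 of 13744 lower.

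All 11 later B-cell surface genes that had a single-symbol probe set lay above background, beside 63.5% of all such probe sets. All 11 were lower on replicate 4 than the mean of the other arrays (median shift -0.38), Cd180 by only 0.04. Over the single-symbol probe sets above background, 7430 of 13744 were lower. Replicate 4 held the lowest value of 10 of the 11 genes, against 27.6% of these probe sets, the exception being Cd180. Tnfrsf13c, the BAFF receptor, had log2 values of 11.60, 11.08, 10.97 and 10.39, and Ccr7, a chemokine receptor for lymphoid homing, had 9.73, 9.18, 9.26 and 8.67. Fcer2a, the low-affinity IgE receptor CD23, was highest on replicate 3, at 10.64 against 9.57 to 10.06 elsewhere. Cr2, Cxcr5 and Cd74 were highest on that array too.

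The molecules that the markers work with had a smaller spread. Of 12 genes listed as partners, 9 had a single-symbol probe set, all above background. Their median SD was 0.15, beside 0.29 for the markers and 0.11 over all single-symbol probe sets above background. All 9 were higher on replicate 1 than the mean of the other arrays, and 8 were lower on replicate 4. Over the 13744 single-symbol probe sets above background these counts were 7165 and 7430. Replicate 4 held the lowest value of 6 of the 9 partners, against 27.6% of these probe sets. Cd48, the mouse ligand of CD2, had log2 values of 10.69, 10.56, 10.65 and 10.51, and Sema4d, the ligand of CD72, had 10.44, 10.40, 10.41 and 10.25. Both ligands were highest on replicate 1 and lowest on replicate 4, as their receptors were. The ligands were nearly level, while the receptors differed by 0.78 and 1.28 between replicates 1 and 4. Ptpn6, the phosphatase SHP-1, ran only from 11.19 to 11.42. Il2rb, the beta chain of the interleukin-2 receptor, was high on replicate 1 alone, at 9.29 against 8.41 to 8.47, and was not lowest on replicate 4 as Il2ra was. Siglecg, a lectin that binds CD24, had log2 values of 10.30, 9.85, 9.96 and 9.39, in the order of Ms4a1 and not of Cd24a. Ptprcap, which associates with CD45, was lowest on replicate 4 (10.09 against 10.43 to 10.68), not on replicate 2 as Ptprc was. Lyn, Il2rg and Cd244 had no single-symbol probe set.

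Several members are also made by other marrow cells, and the markers of those cells differed between the arrays too. For Il2ra and Cd2, which T cells carry too, 8 of 12 T and NK cell genes were above background. Cd3d, Cd8b1, Zap70 and Gzmb were not. The share over all single-symbol probe sets was 63.5%. Cd8a, Cd4 and Cd3g passed the line by means of only 0.29, 0.34 and 0.44, against 6.29 for Nkg7. The list of 12, genes not above background included, had a median shift of 0.12 on replicate 1 and of -0.12 on replicate 4. These were the directions of Il2ra and Cd2, but the genes above background were divided. On replicate 1, Cd3e, Cd3g, Cd4, Cd8a and Nkg7 were lower (-0.30 to -0.05) and Cd28, Thy1 and Klrb1c higher (0.04 to 1.05). On replicate 4, Cd3e, Cd28, Thy1 and Klrb1c were lower and Cd3g, Cd4, Cd8a and Nkg7 higher. On replicate 1, 6 of the 12 genes were highest, the 4 not above background among them, and 5 were lowest. Of single-symbol probe sets above background, 33.2% were highest there and 28.9% lowest. Thy1 was highest on replicate 1 and lowest on replicate 4 (7.92, 7.86, 7.61 and 7.45), whereas Cd3e was lowest on replicate 1 (7.27) and highest on replicate 2 (7.74). The summed linear intensity of the 12 genes ran from 8077 on replicate 1 to 9482 on replicate 4, though Nkg7 alone, at 12.64 to 12.99, gives most of it. The part of these cells in the values of Il2ra and Cd2 was not tested. For Bst1 and Ptprc, which myeloid cells also make, the granulocyte and monocyte genes had a median shift of -0.47 on replicate 2. Both members were lowest on this array. There 10 of the 12 genes were lower, beside 6973 of the 13744 single-symbol probe sets above background. The summed intensity of the 12 genes was 48113 there, 51550 on replicate 1, where both members were highest, and up to 61154 on replicate 3. The largest parts of this sum came from Mpo and Elane, which were lowest on replicate 1 (13.62 and 13.49). By its median the list was nearly level on replicate 1 (-0.015), where 7 genes were lower and 5 higher. The mast cell and basophil genes, 3 of 7 above background, had a median shift of -0.52 on replicate 2. The part of the myeloid and mast cells in the values of Bst1 and Ptprc was not tested.

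On replicate 1, where 8 of the 10 markers were highest, 9 of 9 erythroid genes were lower than elsewhere (median shift -1.31). On that array 6579 of the 13744 single-symbol probe sets above background were lower. B-lineage transcription factors had a median shift of 0.83 there and of -0.66 on replicate 4, and the recombinase and pre-B-cell receptor genes had 0.88 and -0.53. On replicate 4, 6 of 6 megakaryocyte and platelet genes were lower (median shift -0.46), and so were 8 of 8 plasmacytoid dendritic cell genes (-0.21). Of the single-symbol probe sets above background, 7430 of 13744 were lower on that array. The plasmacytoid dendritic cell genes were uneven, with shifts of -0.015 for Bst2 and -0.018 for Siglech but -0.91 for Spib. The 9 housekeeping genes had median shifts of -0.03 to 0.03, and the stem and progenitor genes, of which 5 of 6 were above background, had -0.01 to 0.09. The part of the changing mixture in the markers' values was not tested.

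**Figure D4:**
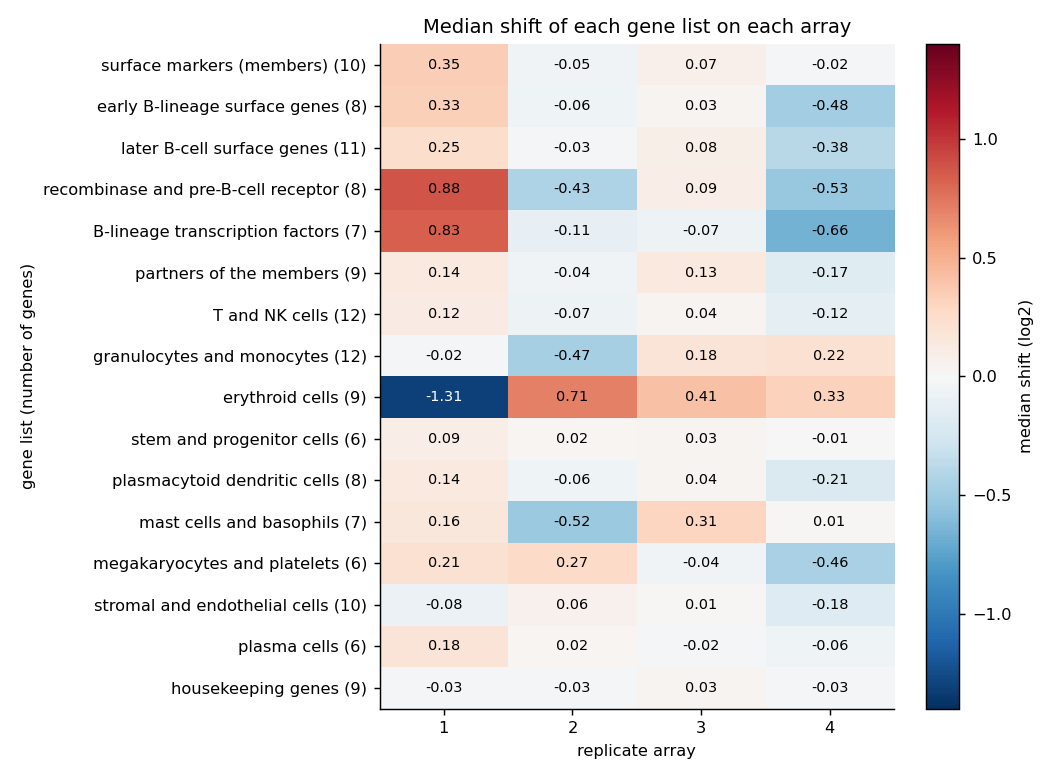
Median over the genes of each list (rows, with the number of genes that had a probe set) of the shift on an array, in log2 units from the average of the remaining arrays, for replicates 1 to 4 (columns); red is higher and blue lower. The 10 surface markers have 0.35 on replicate 1 and -0.02 on replicate 4, the B-lineage transcription factors 0.83 and -0.66, and the housekeeping genes stay within 0.03 of 0.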

How the data were processed

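RNA of B220+ c-Kit+ pro-B cells from wild-type C57BL/6 marrow was measured on 4 arrays, which form 1 group, so no groups were compared. The deposited table holds log2 intensities made by the authors with RMA, which corrects the background and normalizes between arrays. The methods also name a filter on weakly expressed probe sets, with no threshold, but the table still holds values down to 2.27. The set of arrays normalized together and the genome build are not given in the sources used. RMA makes the bulk of probe sets alike between arrays, so a common loss of signal would not show. All 34760 probe sets were kept, and 0 columns lacked a sample. Probe sets were named by the platform's annotation (21640 with 1 symbol, 1321 with several, 11799 with none listed); of the first, 21553 matched RefSeq by gene identifier with 0 symbols changed. A gene with several probe sets was given by the one with the highest mean; each of the 10 markers had 1.

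The background line, the shift (value on an array minus the mean of the other arrays) and the one-sided limma test are described in the results. The limma test called 170 of 200 simulated probe sets with a margin of 0.5, 184 of 200 with 1 and 21 of 4600 with 0, among 5000. Named genes were the 10 markers, the early and later B-lineage surface genes and partners, markers of the sort, the first 2 of each other-cell list and, for the 3 most variable markers, the 3 nearest genes; others were chosen after their values were seen. The members and the 15 other lists (142 entries) were chosen with earlier results of these data known. Alternatives were other lines, 3 of 4 arrays, limma, quantile normalization, cyclic loess, the mean of probe sets, the range, members above background only, and leaving out each replicate. Tables were computed in Python 3.11.15 with pandas 2.3.3 and numpy 2.4.6, plots drawn with matplotlib 3.10.9, and fits made with limma 3.58.1 in R 4.3.3.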

Additional observations from a re-analysis of the deposited data

Results flagged for a closer look

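Mme stood apart on 1 array, with a log2 value of 5.27 on that of replicate 1 against a mean of 5.19 on the others, a gap of 0.84 of its whole range. It was below the background line on every array, and the gap to the nearest array was 0.07 on the log2 scale. Chance flags about 1 in 20 such genes, and 10 were looked at. For no other marker did a single array reach this ratio, the next being Ptprc on replicate 2 at 0.71.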

How the results depend on the processing

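No paired analysis was possible because the 4 arrays form a single group, and no alternative was added after the data were examined. The number of markers above background was 9 under all alternatives run, including when each replicate was left out. The margins over the line kept their sign throughout; 31 of 110 moved by more than their SD over the arrays, all with another line. Quantile normalization and cyclic loess left 5 genes highest on replicate 1 and lowest on replicate 4, as before; quantile normalization moved the lowest array of Cd24a from replicate 1 to 2. The median SD of 0.29 became 0.67 when the range was taken in its place, as its construction implies, and was 0.17 (without replicate 2) to 0.34 when each replicate was left out; without replicate 4 it was 0.21. The median shift of the 10 markers was 0.26 to 0.46 on replicate 1 when other replicates were left out. Near 0, it changed sign on the other arrays: -0.23 to 0.030 on replicate 2 (0.030 without replicate 1), -0.021 to 0.24 on replicate 3 (-0.021 without replicate 4) and -0.084 to 0.021 on replicate 4 (0.021 without replicate 1). The directions of these 3 medians are therefore not given weight. Signal over background limits only Mme among the 10 genes.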

Other observations

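Genes of the recombinase and pre-B-cell receptor, named here after their values were seen, differed in order over the arrays, as the surface markers did. Dntt, the terminal transferase that adds bases at heavy-chain joins, had log2 values of 8.88, 7.32, 9.07 and 8.51 on the arrays of replicates 1 to 4, lowest on replicate 2. Igll1, a surrogate light chain component, was also lowest on replicate 2, at 12.20, 10.66, 11.66 and 10.98. Rag1, a subunit of the recombinase, had 10.15, 8.25, 8.89 and 7.74, and Vpreb3 had 11.60, 10.73, 10.86 and 10.19, highest on replicate 1 and lowest on replicate 4 as Il2ra, Cd2, Ms4a1 and Cd72 were. Ighm went against both, with its lowest value on replicate 1 (10.69 against 11.28 to 11.56). These values have no test, since each array is 1 sample.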
